A study of Mus musculus with 6 samples.

Results

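The type 2 cytokine locus was described here as 7 genes of mouse chromosome 11, Kif3a, Il4, Il13, Rad50, Il5, Csf2 and Il3, chosen by name among the 53278 genes of the deposited table. Of these, 6 passed the filter on low counts and were tested among 14361 genes, and Il3 did not pass it. The genes lay between bases 53567379 and 54267277 of chromosome 11 of GRCm38 (mm10), a stretch of 699.899 kb, and all 7 had the same start and end in GENCODE mouse release 21.

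Type-2 innate lymphoid cells (ILC2s) are lymphocytes without antigen receptors that answer the alarm cytokine IL-33 by secreting type 2 cytokines. In mouse and human the genes for IL-4, IL-13 and IL-5 sit together, with the DNA repair gene Rad50 between Il13 and Il5, and elements that control the cytokine genes of T helper 2 cells lie inside Rad50. IL-5 is the growth factor of eosinophils, IL-13 and IL-4 act on epithelium, smooth muscle and macrophages, and GM-CSF and IL-3, encoded by Csf2 and Il3 farther along the chromosome, act on myeloid cells.

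RNA was sequenced from ILC2s (lineage-negative cells positive for CD45, ST2 and CD117) sorted from the visceral adipose tissue (VAT) of 8 weeks old C57BL/6 mice that had each received 3 intraperitoneal injections of 1 µg IL-33. The cells of both groups were cultured with IL-2 (10 ng/mL) and IL-7 (10 ng/mL), either with 5 µg/mL DTA-1, an agonistic antibody to the costimulatory receptor GITR, or with its isotype control. The culture lasted 48 h by the labels and the study's methods, while its account of the RNA-seq gives a shorter time, and each group had 3 libraries made from 10 ng of RNA. The comparison asks how GITR engagement changes the transcripts of activated ILC2s, and there was no group without IL-33. Nothing in the labels says whether the libraries came from separate mice or cultures, so the tests measure the spread between these libraries, which may be technical.

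The libraries held 30569351 to 35131329 counts, and a gene with 0 counts could still have had up to 3, or 0.0848 to 0.097 normalized counts, a limit that covers counting error only. Normalized counts are counts divided by the TMM-scaled library size, expressed as CPM. All 13 listed ILC2 markers were tested, the lowest value among them being 9.16 normalized counts, and Gata3 stood at 1525 to 1716 normalized counts. T cell markers summed to 40.1 to 53.3 normalized counts in isotype control and 45.9 to 50.3 in DTA-1, at least 90.15% of it from Cd3g, and 6 other lists (B cells, eosinophils, macrophages, neutrophils, NK cells with ILC1, and fibroblasts) summed to at most 7.74. The library labelled DTA-1 replicate 1 stood apart from its group. The chi-square of its counts per degree of freedom, close to 1 where 2 libraries differ by sampling alone, was 9.64 to 11.3 against the isotype control libraries and 27.1 to 28.2 against DTA-1 replicates 2 and 3, which were 11.4 from each other. Results for the locus members are therefore given with and without it, and those of other genes where it changed a call or a direction.

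The members are described in 3 sets by their levels and fold changes, and no test separated the sets. Il5 and Csf2, the most abundant members, had 1.52-fold and 1.79-fold the isotype control level in DTA-1, and Il13 had 1.29-fold, with the higher values in DTA-1 replicates 2 and 3. Il4, Rad50 and Kif3a had 0.94-fold, 1.02-fold and 1.06-fold. Il3 was not detected, with 0 counts in all 6 libraries. With all 6 libraries 0 of the 6 tested members were differentially expressed (edgeR's quasi-likelihood test, adjusted p under 0.05 and at least 1.5-fold), as were 0% of all genes; DESeq2 and limma-trend also called 0 members. With DTA-1 replicate 1 left out, Il5 and Csf2 rose, 2 of 6 members, against 0.583% of all genes called higher. That library was singled out by its own values, so p-values without it are a description of the 5 libraries left and not independent evidence. In sorted cells read in bulk, more RNA per cell and more cells of a type cannot be told apart.

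The sequences just before the starts of the 4 cytokine genes with counts are shown as a description. Whether they bear on how the values of these genes were spread over the libraries was not tested. Each sequence is 250 bases before the RefSeq start (assembly GRCm38.p6), 5′ to 3′ on the gene's strand. Capitals mark matches to the GATA motif, the site of GATA3, which directs the type 2 program.
Il5, chr11:53720544-53720793, plus strand: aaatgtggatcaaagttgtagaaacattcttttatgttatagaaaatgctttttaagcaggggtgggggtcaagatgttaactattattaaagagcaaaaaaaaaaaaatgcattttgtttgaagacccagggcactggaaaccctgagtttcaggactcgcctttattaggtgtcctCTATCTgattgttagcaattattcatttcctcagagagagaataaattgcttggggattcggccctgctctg
Il13, chr11:53634703-53634952, minus strand: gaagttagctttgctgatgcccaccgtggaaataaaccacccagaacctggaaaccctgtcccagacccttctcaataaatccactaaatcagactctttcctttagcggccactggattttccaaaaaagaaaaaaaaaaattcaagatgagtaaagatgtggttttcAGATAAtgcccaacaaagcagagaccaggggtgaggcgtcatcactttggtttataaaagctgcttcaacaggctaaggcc
Csf2, chr11:54249900-54250149, minus strand: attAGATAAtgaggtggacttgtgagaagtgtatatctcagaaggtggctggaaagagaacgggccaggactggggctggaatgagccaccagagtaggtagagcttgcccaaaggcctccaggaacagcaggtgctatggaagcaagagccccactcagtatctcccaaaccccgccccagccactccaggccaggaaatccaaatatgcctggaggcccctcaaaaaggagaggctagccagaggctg
Il4, chr11:53618666-53618915, minus strand: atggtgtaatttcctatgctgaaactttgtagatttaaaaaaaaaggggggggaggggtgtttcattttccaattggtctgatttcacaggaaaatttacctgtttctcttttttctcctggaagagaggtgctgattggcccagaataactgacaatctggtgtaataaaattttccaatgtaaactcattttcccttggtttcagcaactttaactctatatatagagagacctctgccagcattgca
The motifs searched on both strands were GATA (A or T, then GATA, then A or G), the AP-1 motif TGANTCA, the kB motif of NF-κB and the NFAT core GGAAA. RefSeq gave 7 such windows for 6 members, with 2 for Il4 and none for Rad50. GATA was found in 5 of the 7 windows, against 26.5% of 32851 mouse windows, and the NFAT core in 6, against 55.6%. The AP-1 and kB motifs were found in 0 of the 7, against 6.75% and 7.25%. The 232 bases between the RefSeq and GENCODE starts of Csf2 lie outside its window and were not searched for any motif. The GATA match lay at −72 to −67 from the start of Il5 (−1 is the base before the start), on the opposite strand, and at −81 to −76 from that of Il13. In Csf2 it lay at −247 to −242 from a start that RefSeq places 232 bases upstream of the GENCODE one. The window of Il4 printed here held 0 GATA matches and 5 NFAT cores, while the other Il4 window (chr11:53617339-53617588), inside the gene, held 1 GATA match. Il3, the gene without counts, also had a GATA match, at −101 to −96. The NFAT core, not capitalized here, was not particular to Il4. The windows of Il13, Il5 and Csf2 held 4, 2 and 2, and those of Kif3a and Il3 held 1 each. A match is a description of letters and not a binding site.

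Il5 (53720794 to 53725106, plus strand) was the most abundant member. It had 5063, 5418 and 5493 normalized counts in isotype control replicates 1 to 3, against 5627, 9695 and 8899 in DTA-1 replicates 1 to 3. All DTA-1 libraries were above all isotype control libraries, but replicate 1 only just so. The means were 5325 ± 230 and 8074 ± 2156 normalized counts (SD, n = 3 each). On the log2 scale DTA-1 minus isotype control was 0.60 for Il5 (standard error 0.16, adjusted p = 0.627 by edgeR), so the difference did not pass the test. With DTA-1 replicate 1 left out it was 0.80 (standard error 0.05, edgeR adjusted p = 0.000115). When DTA-1 replicate 2 was left out instead, it was 0.45.

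Csf2 (54247271 to 54249667, minus strand), which encodes GM-CSF, had the largest log2 fold change among the members. It stood at 273.1, 271.3 and 279.2 normalized counts under isotype control, against 269.0, 658.5 and 545.7 under DTA-1. DTA-1 replicate 1 was below every isotype control library, and the other two were far above them. The log2 fold change of Csf2 was 0.84 (standard error 0.30, adjusted p = 0.656 by edgeR), and 1.13 without that library (standard error 0.08, edgeR adjusted p = 0.000115). Without DTA-1 replicate 2 it was 0.58.

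Il13 (53631324 to 53634702, minus strand) differed in the same direction by less. Its normalized counts were 71.34, 64.04 and 75.34 under isotype control, against 73.68, 108.2 and 88.81 under DTA-1. DTA-1 replicate 1 lay within the isotype control range and the other two lay above it. The log2 fold change of Il13 was 0.36 (standard error 0.13, adjusted p = 0.632 by edgeR), and 0.49 with DTA-1 replicate 1 left out (edgeR adjusted p = 0.0560), which missed both the threshold and 1.5-fold. Without DTA-1 replicate 2 it was 0.22.

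Il4 (53602982 to 53618669, minus strand) lies 12.654 kb from Il13, and IL-4 and IL-13 share a receptor chain, yet its libraries were ordered differently. It had 26.77, 25.18 and 26.90 normalized counts under isotype control, against 28.04, 21.78 and 24.28 under DTA-1. Here DTA-1 replicates 2 and 3 were the lowest of the 6 libraries and replicate 1 the highest. The log2 fold change was −0.09 (95% interval −0.35 to 0.17, adjusted p = 0.906 by edgeR), and −0.19 without that library (edgeR adjusted p = 0.521), so no difference was shown. The RefSeq model of Kif3a ends at 53604248, beyond the GENCODE end, and runs over a 3′ exon of 179 bases (53602982 to 53603160) of a processed Il4 transcript on the opposite strand. Whether strand was used in counting is not given in the sources used here, so reads in that exon could belong to either gene.

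Mast cells and basophils can also make type 2 cytokines. The sort removed cells with FcεRI, the IgE receptor of both, along with the other lineage markers. The 6 listed mast cell and basophil markers, of which 4 were tested, summed to 11.6 to 16.9 normalized counts in isotype control, and to 12.4, 30.7 and 22.2 in DTA-1 replicates 1, 2 and 3, so that the sum was highest in the libraries in which Il5 and Csf2 were high. Most of that difference was Cpa3, at 4.37 to 7.49 under isotype control, against 6.83, 19.4 and 12.8 under DTA-1. Mcpt8, the basophil protease gene, stood at 0.66 to 1.16 against 0.42, 0.19 and 0.69 normalized counts. It was below the isotype control range in DTA-1 replicates 1 and 2 and inside it in replicate 3. Tpsb2 stood at 4.38 to 6.05 against 3.66, 8.26 and 4.96, and Fcer1a at 0.77 to 2.85 against 1.52, 2.63 and 3.11, each with a DTA-1 replicate 2 or 3 value inside the isotype control range. Ms4a2 was at 0 to 0.26 and Mcpt4 at 0 to 0.44 over the 6 libraries, and 0 of the 6 markers were at 0 in all libraries. The part of such cells in the cytokine values was not tested.

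**Figure D1:**
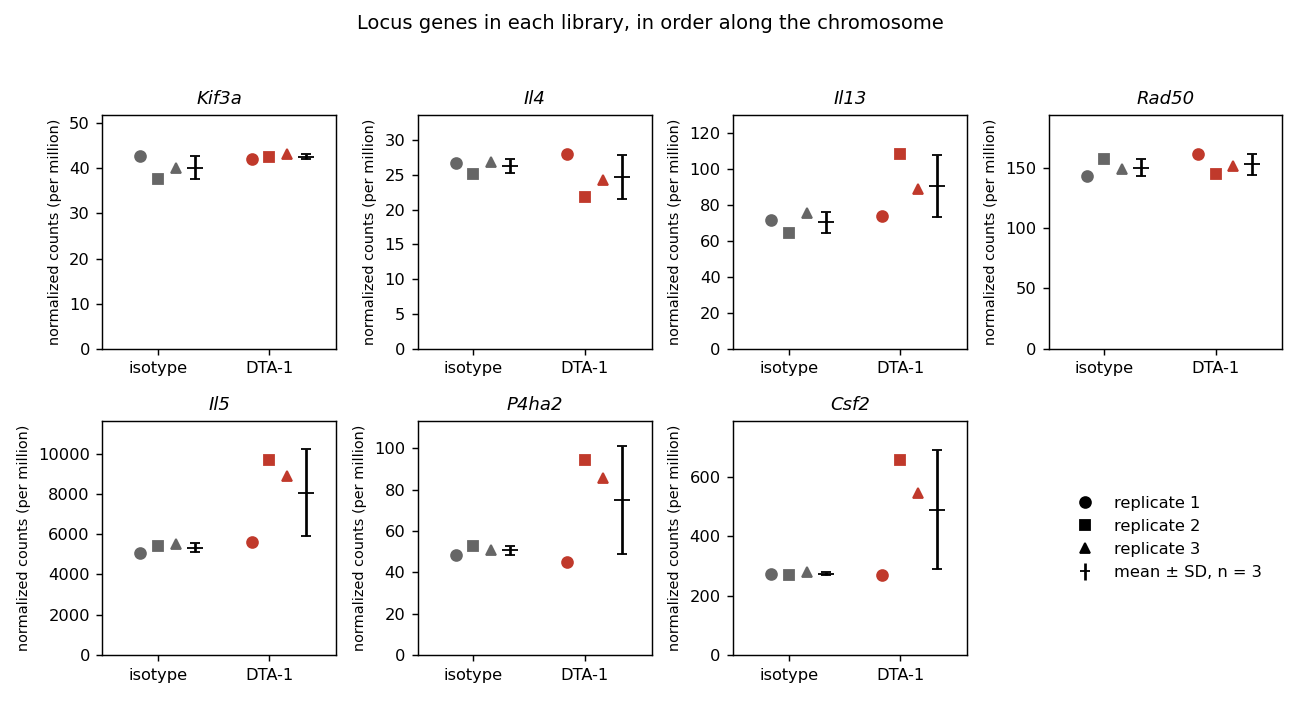
Normalized counts (CPM, linear axes from 0) of 6 locus genes and of P4ha2, which lies between Il5 and Csf2, in each library, with marker shapes for replicates and bars for the mean ± SD of 3 libraries. In the panels of Il13, Il5, P4ha2 and Csf2, DTA-1 replicates 2 and 3 stand above the isotype control libraries and DTA-1 replicate 1 stands near them, whereas for Kif3a and Rad50 the groups overlap and Il4 is lowest in DTA-1 replicates 2 and 3.

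The genes without a cytokine product served as neighbours. Rad50 (53649519 to 53707319, minus strand), of the DNA double-strand break repair complex, lies between Il13 and Il5, 14.816 kb from the one and 13.474 kb from the other. It had 143.5, 157.6 and 149.2 normalized counts under isotype control, against 161.7, 145.0 and 151.9 under DTA-1. The groups overlapped, and the log2 fold change of Rad50 was 0.03 (95% interval −0.13 to 0.18, edgeR adjusted p = 0.954). Kif3a (53567379 to 53601967, plus strand), a kinesin motor of cilia, had 42.73, 37.66 and 40.19 normalized counts under isotype control, against 42.18, 42.48 and 43.23 under DTA-1. Its log2 fold change was 0.08 (95% interval −0.11 to 0.28, edgeR adjusted p = 0.873), and 0.09 with DTA-1 replicate 1 left out. That of Rad50 then turned to −0.02. For both genes the intervals over 6 libraries leave out a 1.5-fold change (0.58 on the log2 scale), which the interval of Il4 does too.

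Il3 (54265303 to 54267277, minus strand) had 0 counts in every library, although it lies 15.635 kb from Csf2, with which it is often expressed in activated T cells. No fold change was computed for it.

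Read as a list, 5 of the 6 tested members were higher in DTA-1 and 1 was lower, with a median log2 fold change of 0.22 against −0.01 over all genes tested (0.29 against −0.02 with DTA-1 replicate 1 left out). Every DTA-1 library was above every isotype control library for 1 member, Il5, against 5.29% of genes, and below for 0 members, against 6.04%. With DTA-1 replicates 2 and 3 alone, 3 members (Il13, Il5 and Csf2) were above all isotype control libraries, against 15.6% of genes, and 1 (Il4) was below, against 16.1%. At an unadjusted p under 0.05 with 1.5-fold, 2 members (Il5 and Csf2) were higher, against 1.09% of genes.

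Per kilobase of exon, which makes levels comparable between genes, the order was Il5, Csf2, Il13, Rad50, Il4, Kif3a and Il3 by the means of either group. In isotype control Il5 stood at 3464 ± 149 and Csf2 at 343 ± 5.2 normalized counts per kb (SD, n = 3). Il13 followed at 58.3 ± 4.8, Rad50 at 27.9 ± 1.3, Il4 at 21.4 ± 0.78 and Kif3a at 11.2 ± 0.71. No 2 neighbours in that order overlapped in isotype control. In DTA-1 the values were 5253 ± 1403 for Il5, 614 ± 251 for Csf2, 74.9 ± 14.4 for Il13, 28.4 ± 1.6 for Rad50, 20.1 ± 2.6 for Il4 and 11.9 ± 0.15 for Kif3a, and again no neighbours overlapped. The separation of Il4 from Rad50 rests on the Il4 length of 1227 bases. With the 983 bases left without its longer processed transcript, a length tried after the values were seen, Il4 stood at 25.6 to 27.4 normalized counts per kb in isotype control and overlapped Rad50 at 26.7 to 29.3, and in DTA-1 it stood at 22.2 to 28.5 against 27.0 to 30.1. Il5 made up 86.7% to 88.8% of the per-kilobase signal of the 7 genes in every library. The share of Csf2 was 8.53% to 9.09% in isotype control, 8.15% in DTA-1 replicate 1, and 11.3% and 10.3% in DTA-1 replicates 2 and 3.

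Ratios of 2 genes within a library do not depend on library scaling. The ratio of Il5 to Il4 counts was 189, 215 and 204 under isotype control, against 201, 445 and 367 under DTA-1. The ratio of Il13 to Il4 was 2.67, 2.54 and 2.80 against 2.63, 4.97 and 3.66. The ratio of Csf2 to Rad50 was 1.90, 1.72 and 1.87 against 1.66, 4.54 and 3.59. In each of the 3, DTA-1 replicates 2 and 3 were above every other library and replicate 1 was not. The ratio of Rad50 to Kif3a, which encode no cytokine, was 3.36, 4.18 and 3.71 against 3.83, 3.41 and 3.51, with the groups overlapping. By a two-sided exact permutation test, whose smallest possible p with 3 libraries a group is 0.1, p was 0.3, 0.3, 0.4 and 0.7. Of the 10 ratios computed, that of P4ha2 to Csf2 had the smallest p by this test, 0.1. That ratio was 0.177, 0.195 and 0.182 under isotype control, against 0.167, 0.143 and 0.157 under DTA-1. The smallest Benjamini-Hochberg adjusted p of the 10 was 0.571.

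**Figure D2:**
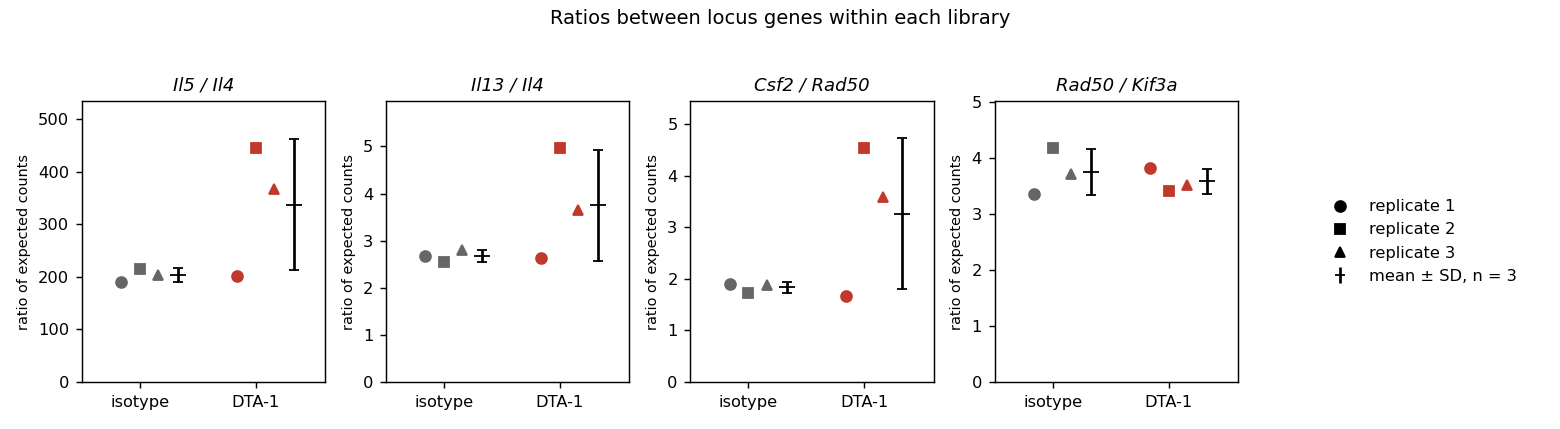
Ratios of expected counts of 2 locus genes within each library, on linear axes from 0, with the mean ± SD of 3 libraries beside the points. The ratios of Il5 to Il4, Il13 to Il4 and Csf2 to Rad50 are highest in DTA-1 replicates 2 and 3, while Rad50 to Kif3a, at 3.36 to 4.18, overlaps between groups.

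The chromosome around the locus was then taken with 250 kb on either side (53317379 to 54517277). It held 45 other genes, of which 16 were tested and 11 had 0 counts in every library. Of the 16, 8 were higher and 8 lower in DTA-1, with a median log2 fold change of −0.01 and 0 called. Irf1, a transcription factor gene between Il5 and Csf2, had 98.1, 108.0 and 103.5 normalized counts under isotype control, against 105.2, 102.9 and 96.2 under DTA-1. It was at −0.02 on the log2 scale (edgeR adjusted p = 0.960). With DTA-1 replicate 1 left out, 1 of the 16 tested neighbours was called, P4ha2, against 0.583% of all genes called higher. P4ha2 (54100095 to 54131665, plus strand), a subunit of collagen prolyl hydroxylase, lies 374.988 kb beyond Il5 and 115.605 kb before Csf2. It had 48.39, 52.80 and 50.94 normalized counts under isotype control, against 45.03, 94.33 and 85.67 under DTA-1, so that DTA-1 replicate 1 was again the lowest and the other two the highest. The log2 fold change of P4ha2 was 0.56 (edgeR adjusted p = 0.653), and 0.83 without that library (edgeR adjusted p = 0.00129).

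The antisense genes Gm12214 and Gm12223 had log2 fold changes of 0.53 and 0.89 (edgeR adjusted p = 0.627 and 0.677), and 0.66 and 1.23 with DTA-1 replicate 1 left out (edgeR adjusted p = 0.0754 and 0.0817). All 417 exon bases of Gm12214 lie inside the last exon of Il5, and 96 of the 528 exon bases of Gm12223 are shared with Csf2. Gm12214 held 0.22% to 0.30% of the Il5 count and Gm12223 0.62% to 0.87% of the Csf2 count. Without strand the reads of Gm12214 cannot be told apart from those of Il5, and for Gm12223 the same holds in the shared bases only.

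**Figure D3:**
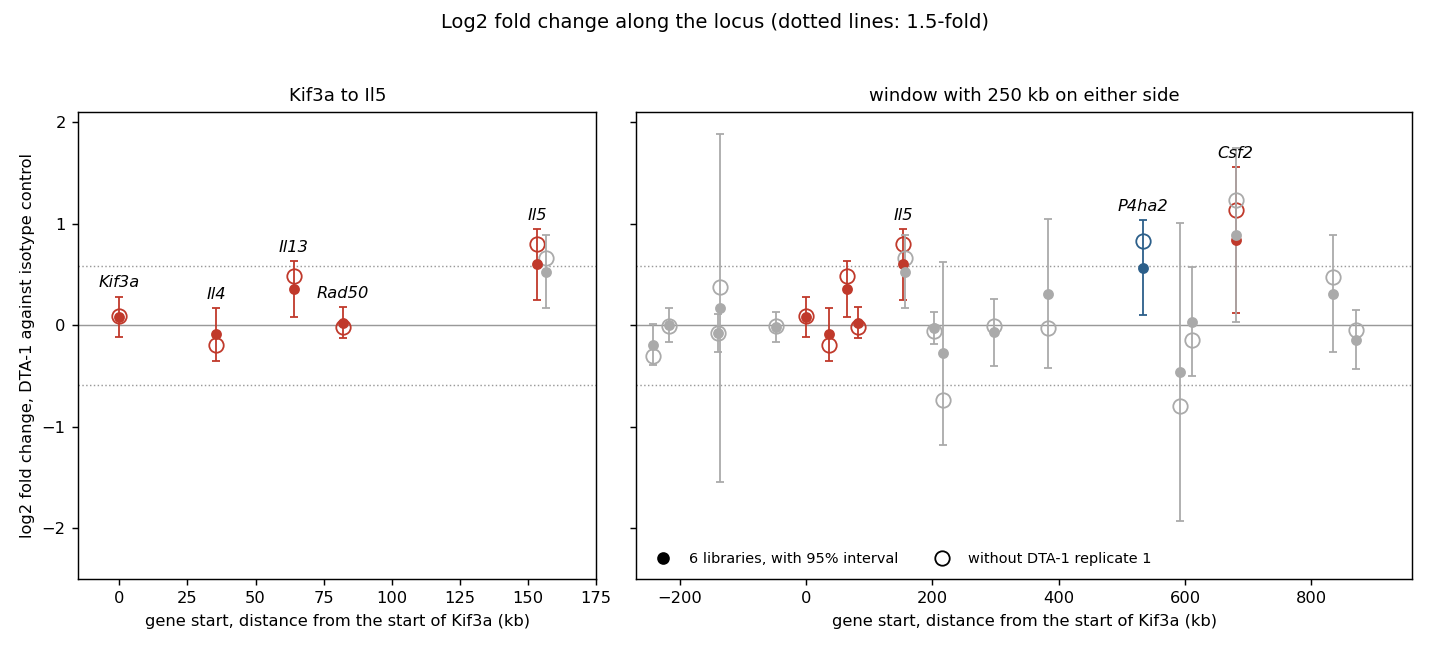
Log2 fold change of each tested gene, DTA-1 against isotype control, by distance of its start from that of Kif3a in kb, for Kif3a to Il5 (left) and the whole window (right), with locus members in red, P4ha2 in blue and other genes in grey. Filled points are all 6 libraries with 95% intervals and open points leave out DTA-1 replicate 1, where Il5, P4ha2 and Csf2 are at 0.80, 0.83 and 1.13 while Rad50, between Il13 and Il5, stays at −0.02.

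Over the 6 libraries the genes nearest in pattern to Il5 and to Csf2 lay outside the locus. The locus holds few of the genes compared, so this was likely beforehand. Likeness was the root mean square difference of centred log2 normalized counts over 8722 genes with a mean of at least 10 normalized counts, and it describes 6 points only. The measure takes in the size of a change, so a gene of the same order but larger change ranks lower. The genes most like Il5 were Bhlhe40 (chromosome 6, 0.0359), a transcription factor gene, Uap1 (chromosome 1, 0.0464), of the pathway to UDP-N-acetylglucosamine, and Areg (chromosome 5, 0.0597), the EGF family growth factor amphiregulin. P4ha2 ranked 13 by this measure, Il13 86, Csf2 91, and Il4 7606. The genes most like Csf2 were Ccdc184 (chromosome 15, 0.0894), Cd82 (chromosome 2, 0.0962), a tetraspanin, and Nlrp3 (chromosome 11, 0.106), the inflammasome sensor, outside the window. P4ha2 ranked 14, Il5 22 and Il13 107. With DTA-1 replicate 1 left out these 6 genes were called higher, at log2 fold changes from 0.75 for Areg to 1.29 for Cd82 (edgeR adjusted p = 0.000163 and 1.345e-05), which follows from their choice by likeness to Il5 and Csf2.

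Of the receptors of the locus cytokines, 6 of 9 were tested. Il5ra, Il13ra1 and Il13ra2 had 0 counts in all libraries. The 6 tested genes had a median log2 fold change of −0.07, with 1 higher, 5 lower and 0 called. Il2rg, the common gamma chain used by IL-4, IL-2 and IL-7, had 1142, 1117 and 1091 normalized counts under isotype control, against 1107, 1802 and 1783 under DTA-1. The log2 fold change of Il2rg was 0.49 (edgeR adjusted p = 0.627), and 0.68 with DTA-1 replicate 1 left out (edgeR adjusted p = 0.000115). Il2rg was then the 1 receptor gene called of 6, against 0.583% of all genes called higher. Il4ra, the chain shared by IL-4 and IL-13, was at −0.01 and Il3ra at −0.01 on the log2 scale, and with DTA-1 replicate 1 left out at 0.02 and 0.04. The GM-CSF receptor chain Csf2ra, the common beta chain Csf2rb and its mouse copy Csf2rb2 were at −0.13, −0.13 and −0.25, and reads of the last 2, which are alike in sequence, could be split between them.

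The 30 regulators known to act at type 2 cytokine genes were all tested, with 15 higher, 15 lower, 0 called and a median of 0.01. Gata3, the factor that the locus depends on, had 1716, 1688 and 1688 normalized counts under isotype control, against 1678, 1525 and 1607 under DTA-1. The groups did not overlap, but DTA-1 replicate 1 was only just below. Gata3 was at −0.08 on the log2 scale (edgeR adjusted p = 0.789). Every DTA-1 library was below every isotype control library for 2 regulators, Gata3 and Mbd2, against 6.04% of all genes. Every one was above for 1 regulator, Ets1, against 5.29%. The 3 with the smallest p were Junb, Nfkb1 and Mbd2. Junb, an AP-1 subunit, had 319.5, 295.5 and 339.9 normalized counts under isotype control, against 321.4, 517.4 and 551.1 under DTA-1. Its log2 fold change was 0.54 (edgeR adjusted p = 0.627) and 0.75 with DTA-1 replicate 1 left out (edgeR adjusted p = 0.000610). Junb was then the 1 regulator called of 30, against 0.583% of all genes called higher. Nfkb1, which encodes the NF-κB precursor p105, was at −0.32 on the log2 scale (edgeR adjusted p = 0.657). Without that library it was −0.54 (edgeR adjusted p = 0.00162), which is less than 1.5-fold. Mbd2, a reader of methylated DNA, was at −0.16 and −0.23 (edgeR adjusted p = 0.677 and 0.105).

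Of 16 genes for secreted factors encoded elsewhere, 9 were tested, with 7 higher, 2 lower, 0 called and a median log2 fold change of 0.23, or 0.12 with DTA-1 replicate 1 left out. Areg had 193.5, 192.7 and 193.5 normalized counts under isotype control, against 187.6, 334.4 and 316.5 under DTA-1, with replicate 1 lowest and the other two highest. Tnf had 9.89, 6.67 and 7.34 normalized counts under isotype control, against 10.2, 19.8 and 16.2 under DTA-1. Their log2 fold changes were 0.53 and 0.95 (edgeR adjusted p = 0.627 for both). With DTA-1 replicate 1 left out both rose, by 0.75 and 1.17 (edgeR adjusted p = 0.000163 and 0.0187). These were 2 of the 9 tested, against 0.583% of all genes called higher. Csf1, for the macrophage growth factor M-CSF, was lower in every DTA-1 library, at 23.8, 21.8 and 22.0 normalized counts against 30.1, 31.5 and 35.0. Its log2 fold change was −0.52 (edgeR adjusted p = 0.491), and −0.56 without that library (edgeR adjusted p = 0.0481), less than 1.5-fold. Every DTA-1 library was below every isotype control library for 2 of the 9, Csf1 and Il6, against 6.04% of all genes. Il6 had at most 3.22 normalized counts. Every one was above for 1 of the 9, Tnf, against 5.29%.

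**Figure D4:**
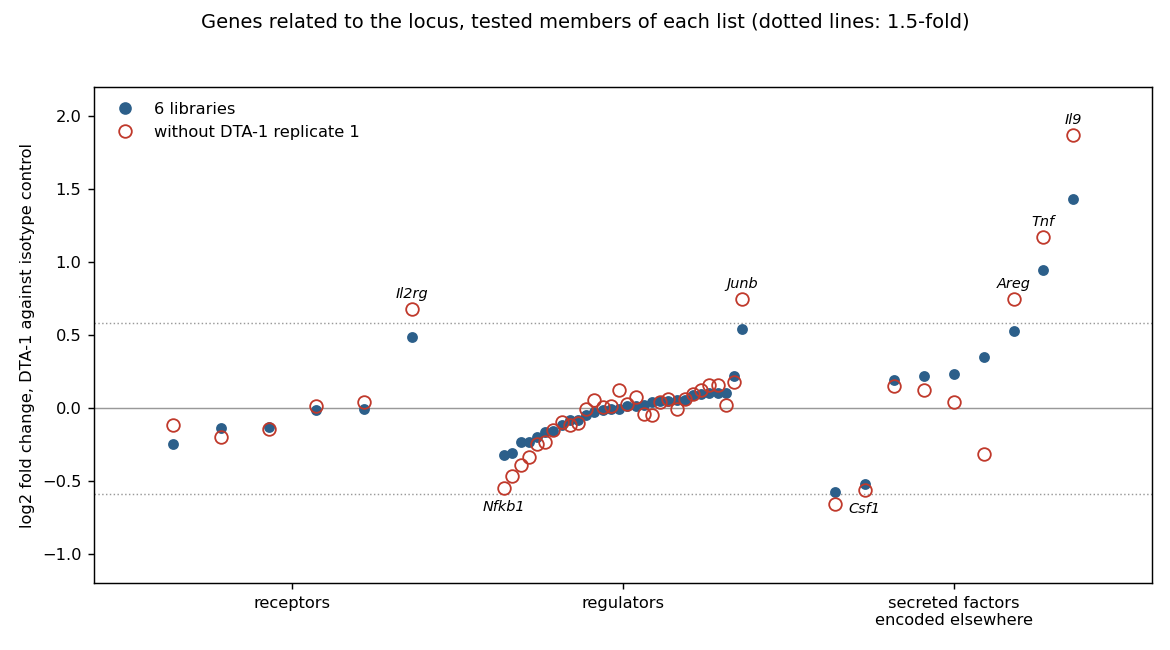
Log2 fold changes, DTA-1 against isotype control, of the tested receptors (6), regulators (30) and secreted factors encoded elsewhere (9), ordered within each list, with filled points for 6 libraries and open points with DTA-1 replicate 1 left out. Il2rg, Junb, Areg and Tnf, at 0.49, 0.54, 0.53 and 0.95 with all libraries, move farther from 0 without it. Il9, at the right end, had at most 6.12 normalized counts and was not called.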

How the data were processed

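RNA-seq libraries of sorted VAT ILC2s cultured with DTA-1 or isotype control (3 each) were taken as their titles label them. The titles of the control libraries read isotype, while their descriptions and column headers read PBS-GITR. The authors sequenced on an Illumina NextSeq, and the submitters' processing notes name bcl2fastq 2.17.1.14, STAR 2.5.3a, Partek and mm10. The deposited values are expected counts per gene, estimated reads that need not be whole (81.1% were whole within 0.001), not normalized and not filtered. The annotation release and strand setting are not given in the sources used here.

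Expected counts were rounded. edgeR 4.0.16 in R 4.3.3 (filterByExpr by group, TMM, robust quasi-likelihood F test, Benjamini-Hochberg adjustment over 14361 genes) compared DTA-1 with isotype control without covariates. Differentially expressed meant an adjusted p under 0.05 and at least 1.5-fold. Standard errors were derived from the F statistic and intervals are 95%. Exon lengths were the union of GENCODE exons. DESeq2 1.42.0, limma 3.58.1 (log2 CPM with a prior count of 2), other scalings and filters, a replicate block and each library left out in turn were alternatives. The procedure was run on counts simulated with a common dispersion and no library apart from its group, unlike these data. Tables and plots used Python 3.11.15, pandas 2.3.3, numpy 2.4.6, scipy 1.17.1 and matplotlib 3.10.9. Promoter windows came from RefSeq.

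Named were the locus genes, all receptors, the 3 genes of smallest p in the other lists, and the 3 most like Il5 and Csf2. Irf1, Gata3, Ets1, Il6, Il9 and marker genes were named in addition, with their values known. The members and lists were chosen with earlier results of these data known.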

Additional observations from a re-analysis of the deposited data

How the results depend on the processing

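With all 6 libraries, 0 of 14361 genes were differentially expressed by edgeR, the smallest adjusted p being 0.452. The count was 25 by DESeq2's Wald test, 2 without a filter and 1 with the replicate number as a block. It was 337 at an unadjusted p under 0.05 with at least 1.5-fold. Leaving out each library in turn gave 0 to 111 genes, and the 111 (87 higher, 24 lower, of 14911 tested) came without the library labelled DTA-1 replicate 1. Of the locus members, 2 (Il5 and Csf2) met an unadjusted p under 0.05 with 1.5-fold. Il13 met the p alone (edgeR unadjusted p = 0.015) and not the fold limit. Leaving out each library gave 0 to 2 members called, the 2 being Il5 and Csf2 without the library labelled DTA-1 replicate 1. By DESeq2, limma-trend, the other scalings and filters and the block, 0 members were called.

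Of 377 recomputed log2 fold changes (29 genes, 13 alternatives), 352 kept their direction and call, and 13 became called, by DESeq2 (Uap1) or without the library labelled DTA-1 replicate 1 (Il5, Csf2, P4ha2, Il2rg, Junb, Tnf, Areg, Bhlhe40, Uap1, Ccdc184, Cd82 and Nlrp3). The other 12 changed sign near 0. Rad50 was −0.0091 by total counts, −0.0012 without isotype control replicate 1 and −0.016 without DTA-1 replicate 1. Irf1 was 0.0087 without isotype control replicate 2 and 0.012 without DTA-1 replicate 3. Leaving out each library, Rad50 ran from −0.016 to 0.068, Irf1 from −0.056 to 0.012, Il4ra from −0.057 to 0.016 and Il3ra from −0.095 to 0.042, with both signs in each. The cause was not tested. Over all alternatives Il5 ranged from 0.45 to 0.80, Csf2 from 0.58 to 1.13, Il13 from 0.22 to 0.49 and Il4 from −0.19 to −0.0015, and the adjusted p of Il5 and Csf2 from 0.000115 to 0.9985. Scaling moved the median of all genes by at most 0.036.

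No pairing by replicate number was seen: deviations of same-numbered libraries correlated at −0.0069, −0.0029 and 0.015, and 2 of 6 libraries correlated best with their own number. With 3 libraries a group, and DTA-1 replicate 1 far from its group, these values cannot exclude pairing. The block changed no call of these 29 genes, and the 1 gene it called was Chil3, not among them. At 3 libraries a group, differences of the size of Il4's could not be told from 0 here, and Il3 was under the limit that 0 counts allow.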
